A study of Homo sapiens with 24 samples.

Results

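The first day of TAp63 induction was examined in TYUC-1 cells, an established line from a neuroendocrine carcinoma of the esophagus that was grown in suspension. RNA was sequenced from 3 libraries of the TAp63 line (genotype label i-TAp63) at day 1 of induction and 3 at day 0, which are 6 of the 24 libraries of the series. The day 1 cells had 1 day of doxycycline at 1 µg/ml and 5 days of the vehicle DMSO, and the day 0 cells had 6 days of DMSO alone. The remaining libraries come from the same line at days 3 and 6 and from a ΔNp63 line at all 4 times. Both groups carry the inducible construct, and cells without it that received doxycycline were not analysed here. A second label gives the EZH2 inhibitor EPZ-6438, which blocks a histone-methylating enzyme, as present for 1 day in the day 1 samples and 0 days in the day 0 samples. Titles, induction label and design speak of p63 induction alone, so induction, doxycycline and the inhibitor, if it was used, cannot be told apart. The replicates are described as biological, but their cultures' history is not given, and p-values reflect the variation among these libraries, which may be technical. Nothing in the labels says whether the line is 1 clone, and RNA was total RNA from the whole culture, in which fewer cells making a transcript and less of it per cell cannot be told apart.

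p63 is a transcription factor of the p53 family that binds DNA sites resembling those of p53 and is needed to form and maintain the basal layer of stratified squamous epithelia such as that of the esophagus. Its gene, TP63, has alternative promoters: the TA forms carry an N-terminal activation domain and the ΔN forms, which dominate in basal cells, lack it. Neuroendocrine tumors are commonly sorted by transcription factors such as NEUROD1 and POU2F3, and POU2F3 is the factor that specifies tuft cells, a chemosensory epithelial cell type.

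Totals ran from 7224138 to 21095148 counts in the day 1 libraries and from 6755662 to 20977266 in the day 0 libraries. Levels are CPM, counts scaled to TMM-adjusted library sizes, not corrected for gene length, and a log2 change is day 1 minus day 0, given ± SE. Calls are genes with an adjusted p (Benjamini-Hochberg) under 0.05 in edgeR's quasi-likelihood test over the 15056 genes tested in the 12 TAp63 libraries. Of the neuroendocrine markers, CHGA (0.375 to 0.469 CPM at day 1 and 0.372 to 0.618 CPM at day 0) and INSM1 were too low to test, and SYP reached 3.75 to 5.29 CPM at day 1 and 4.17 to 4.41 CPM at day 0. POU2F3 stood at 144 to 192 CPM at day 1 and 193 to 245 CPM at day 0. The defining neuroendocrine secretory genes were thus near 0 in a line labelled neuroendocrine, while the tuft cell factor was well detected. The squamous keratins KRT5 and KRT14 stayed under 1 CPM in all 6 libraries and were not tested.

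After 1 day, 19 genes were called higher, 0.126% of the genes tested, and 0 were called lower by edgeR. At an unadjusted p under 0.05, 257 genes were higher (1.71%) and 198 lower (1.32%), and DESeq2 called 28 genes higher and 0 lower. TP63 led the 19, followed by IL23R, CALHM3, SIPA1L2, ALK and C9, and 18 of the 19 rose at least 2-fold. The median log2 change of all genes tested was 0.00169. Of the 15056 genes tested, 480 had every day 1 library above every day 0 library, and 430 had every one below. Genes picked by a small p tend not to overlap, so non-overlap below describes the values and adds no support to a call.

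**Figure D1:**
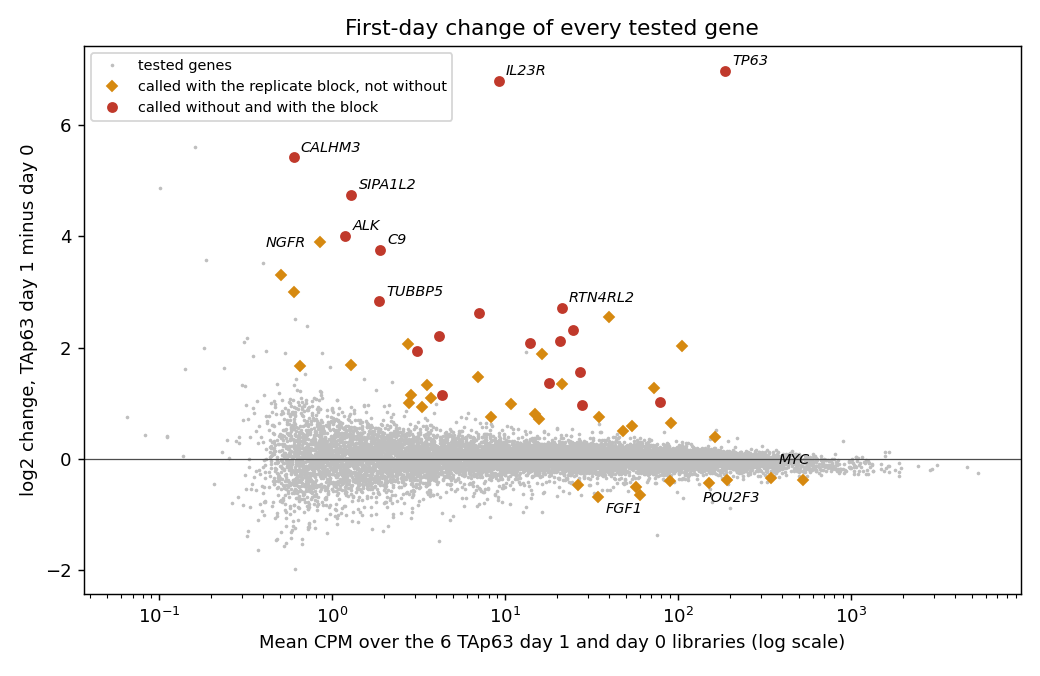
Log2 change of each of the 15056 tested genes, TAp63 day 1 minus day 0, against its mean CPM over the 6 libraries of the 2 days (log scale). Red points are the 19 genes called by edgeR, orange points the 26 higher and 9 lower genes called by edgeR in the 12 TAp63 libraries with the replicate block and not without it, and grey points the others, centred near 0.

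The induced gene itself checked the labels. TP63 (chromosome 3, 189596746 to 189897279, plus strand, hg38) had 372, 417 and 327 CPM in replicates 1, 2 and 3 of TAp63 day 1, against 2.94, 2.90 and 2.98 CPM in the same replicates of day 0. Every day 1 library was far above every day 0 library. The log2 change was 6.98 ± 0.18, a 126-fold rise (edgeR adjusted p = 1.2e-10). The counts cover the whole gene and sum all isoforms, so transcripts of the construct and of the cells' own TP63 are not separated, and MIR944 lies within the gene.

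The receptor and channel genes among the 19 are described first. IL23R, the receptor subunit that binds interleukin-23 (chromosome 1, 67166454 to 67259967, plus strand), had 5.00, 36.8 and 12.2 CPM in replicates 1, 2 and 3 of day 1, against 0.773, 0.0484 and 0.0532 CPM in those of day 0. The groups did not overlap, but the day 1 libraries spanned a wide range with replicate 2 highest. The log2 change was 6.80 ± 0.90 (edgeR adjusted p = 0.00565). It was 5.65 without day 1 replicate 2 and 8.30 without day 0 replicate 1, and the call was lost without day 0 replicate 2 or 3 (log2 6.17 and 6.25, edgeR adjusted p = 0.0949 and 0.0756).

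CALHM3, a subunit of the ATP-releasing ion channel of taste cells (chromosome 10, 103472804 to 103479240, minus strand), gave 60 counts in the 3 day 1 libraries and 1 in the 3 day 0 libraries. The ratio of the groups after scaling for depth was 66.0, with a 95% interval of 11.4 to 2651 that covers counting error only. Its levels were 1.17, 1.97 and 0.395 CPM at day 1 and 0, 0 and 0.0532 CPM at day 0, with no overlap. The log2 change was 5.43 ± 0.75 (edgeR adjusted p = 0.00726). It was 4.79 without day 1 replicate 2, which held 42 of the 60 day 1 counts. The call was lost without day 0 replicate 2 (0.0949) or replicate 3 (0.0705).

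ALK, a receptor tyrosine kinase of the developing nervous system (chromosome 2, 29192774 to 29921586, minus strand), had 1.72, 2.62 and 2.37 CPM at day 1 and 0.155, 0.0484 and 0.213 CPM at day 0. All 3 day 1 libraries were above all 3 day 0 libraries. The log2 change was 4.01 ± 0.43 (edgeR adjusted p = 0.00129). It was 3.47 without day 0 replicate 2 and 4.75 without day 0 replicate 3, as the 3 day 0 libraries held only 6 counts. ALK overlaps LOC105374389, so its counts are uncertain to that extent.

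RTN4RL2, a member of the Nogo receptor family that sits on neurons (chromosome 11, 57460528 to 57477534, plus strand), had 21.4, 67.7 and 20.9 CPM at day 1 and 5.56, 6.63 and 4.73 CPM at day 0. Replicate 2 of day 1 stood more than 3 times above the other day 1 libraries, and all 3 exceeded day 0. The log2 change was 2.72 ± 0.40 (edgeR adjusted p = 0.0131), and 1.91 without day 1 replicate 2. The call was lost without any one of the 3 day 0 libraries, with edgeR adjusted p-values of 0.0539 to 0.132.

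HTR3E, a subunit of the serotonin-gated 5-HT3 channel (chromosome 3, 184097064 to 184106995, plus strand), had 35.8, 46.1 and 27.3 CPM at day 1 and 20.6, 17.6 and 18.5 CPM at day 0. The groups did not overlap. At 0.97 ± 0.17 its log2 change was the smallest of the 19 (edgeR adjusted p = 0.047), and the call survived only 1 of the 6 single-library omissions, that of day 1 replicate 3. It overlaps the antisense gene HTR3E-AS1, and the counting used no strand.

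Among secreted, matrix and membrane enzymes, C9, the complement component that polymerises into the membrane attack pore (chromosome 5, 39284141 to 39364495, minus strand), stood at like levels in the 3 day 1 libraries. It had 3.44, 3.51 and 3.82 CPM at day 1, against 0, 0.290 and 0.319 CPM at day 0. All 3 were above day 0, with a log2 change of 3.76 ± 0.33 (edgeR adjusted p = 0.000288). COL19A1, a non-fibrillar collagen (chromosome 6, 69866556 to 70212467, plus strand), had 3.36, 5.62 and 5.92 CPM at day 1 and 0.927, 1.40 and 1.33 CPM at day 0, a log2 change of 1.94 ± 0.24 (edgeR adjusted p = 0.00371). TMPRSS11E, a membrane-bound serine protease of squamous epithelia (chromosome 4, 68447463 to 68497604, plus strand), had 85.6, 121 and 110 CPM at day 1 and 54.9, 49.0 and 52.7 CPM at day 0. Its groups were apart with a log2 change of 1.02 ± 0.13 (edgeR adjusted p = 0.0046). Of the 6 omissions of 1 library, the call was lost in that of day 0 replicate 2 (0.0639), and it was also lost in edgeR with all 24 libraries (0.656) and with the 6 compared libraries alone (0.164).

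SIPA1L2, of a family of GTPase-activating proteins for Rap (chromosome 1, 232397966 to 232515608, minus strand), had 1.56, 3.75 and 2.11 CPM at day 1 and 0.155, 0.0968 and 0.0532 CPM at day 0. No day 1 library came near day 0, and the log2 change was 4.75 ± 0.53 (edgeR adjusted p = 0.00158). CSRP2, a LIM domain protein known from smooth muscle (chromosome 12, 76858709 to 76879019, minus strand), had 43.4, 41.3 and 36.1 CPM at day 1 and 18.1, 11.3 and 12.5 CPM at day 0, and rose by a log2 of 1.57 ± 0.17 (edgeR adjusted p = 0.00129). ZNF608, a zinc finger protein (chromosome 5, 124636917 to 124745112, minus strand), had 24.7, 28.1 and 24.4 CPM at day 1 and 8.96, 9.72 and 11.1 CPM at day 0, and rose by a log2 of 1.36 ± 0.17 (edgeR adjusted p = 0.00349). Neither pair of groups overlapped.

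ZCCHC24, a zinc finger protein, had 11.6, 39.1 and 16.7 CPM at day 1 and 5.10, 5.18 and 5.85 CPM at day 0, with replicate 2 of day 1 highest and no overlap. Its log2 change of 2.08 ± 0.35 (edgeR adjusted p = 0.0451) was 1.37 without that library, and the call was lost without any one of the day 0 libraries. MFSD4A, a membrane transporter of the major facilitator superfamily, had 19.7, 55.3 and 27.3 CPM at day 1 and 4.64, 9.34 and 8.83 CPM at day 0. Its antisense partner MFSD4A-AS1 had 6.87, 19.2 and 9.87 CPM at day 1 and 2.94, 1.55 and 1.97 CPM at day 0. These rose by a log2 of 2.12 ± 0.34 for MFSD4A and 2.62 ± 0.36 for MFSD4A-AS1 (edgeR adjusted p = 0.0267 and 0.00726), but without strand their reads cannot be told apart where they overlap. MFSD4A lost its call without any one of the day 0 libraries, and MFSD4A-AS1 without day 0 replicate 2 or 3.

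The remaining 4 are pseudogenes or RNAs with near-identical copies elsewhere, and their values are uncertain for that reason. The tubulin pseudogene TUBBP5 had 2.81 to 3.95 CPM at day 1 and 0.387 to 0.618 CPM at day 0 (log2 change 2.84 ± 0.33). FAM157A had 34.4 to 48.1 CPM at day 1 and 7.06 to 10.8 CPM at day 0 (log2 change 2.32 ± 0.22), and both calls held without any one of the 6 libraries. LINC01002 had 4.34 to 9.89 CPM at day 1 and 1.01 to 1.85 CPM at day 0, and FAM86B3P had 4.84 to 6.98 CPM at day 1 and 2.23 to 3.09 CPM at day 0. Neither group pair overlapped, but LINC01002 lost its call without replicate 2 of either day or day 0 replicate 3, and FAM86B3P lost it in 5 of the 6 omissions.

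**Figure D2:**
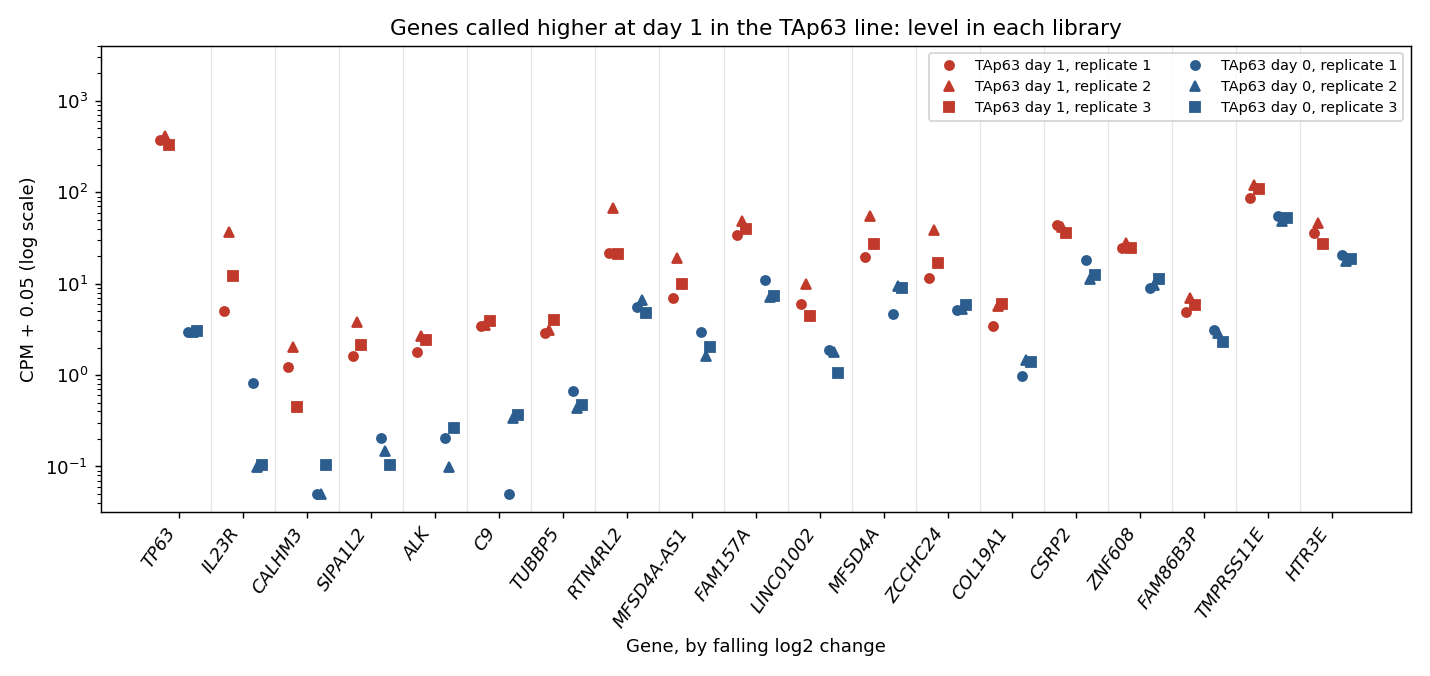
CPM plus 0.05 (log scale) of the 19 genes called higher, with TAp63 day 1 in red to the left of day 0 in blue and a symbol for each replicate. No gene's groups overlap, as for 480 genes with day 1 above day 0 among the 15056 tested. The day 1 triangle, replicate 2, is the top day 1 point for 15 of the 19 genes.

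Day 1 replicate 2 was the highest day 1 library for 15 of the 19 genes, against 24.2% of all genes tested, and exceeded both other day 1 libraries by over 1.5 times for 8 of the 19. Its TP63 level, 417 CPM, was also the highest of day 1. Leaving it out gave 17 genes higher and 0 lower in edgeR, with HTR3E, LINC01002 and FAM86B3P among the calls lost, so 16 of the 19 remained. Leaving out day 0 replicate 2 gave 9 genes and day 0 replicate 3 gave 10, against 19. The 9 genes whose calls held in each of the 6 omissions were TP63, SIPA1L2, ALK, C9, TUBBP5, FAM157A, COL19A1, CSRP2 and ZNF608.

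Promoter sequence was available in the RefSeq table (GRCh38.p14, 250 bases before to 50 after a start) for 13 of the 19 genes, in 15 windows. The sequences below belong to protein-coding genes of the 19 and are shown so that the start regions of the induced genes can be read, with matches to the half-site decamer of the p53 family in capitals, searched on both strands. The windows are chr5:39364446-39364745 (minus strand) for C9, chr6:69866306-69866605 (plus) for COL19A1, chr12:76878970-76879269 (minus) for CSRP2, chr4:68447213-68447512 (plus) for TMPRSS11E and chr3:184099929-184100228 (plus) for HTR3E. The first 4 contain the start site of the counted annotation, and the HTR3E window lies at a start within the counted gene.
C9: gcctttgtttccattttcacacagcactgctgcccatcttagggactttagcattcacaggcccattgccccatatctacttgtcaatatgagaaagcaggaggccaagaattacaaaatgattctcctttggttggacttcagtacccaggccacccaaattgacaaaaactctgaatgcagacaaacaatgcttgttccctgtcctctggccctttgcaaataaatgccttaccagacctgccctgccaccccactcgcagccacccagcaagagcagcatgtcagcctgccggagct
COL19A1: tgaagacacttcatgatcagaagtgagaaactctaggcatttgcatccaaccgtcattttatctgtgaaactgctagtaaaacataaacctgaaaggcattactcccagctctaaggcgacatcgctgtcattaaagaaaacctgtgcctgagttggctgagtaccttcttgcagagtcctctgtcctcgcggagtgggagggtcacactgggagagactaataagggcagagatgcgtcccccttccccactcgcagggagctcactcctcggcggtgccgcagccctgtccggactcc
CSRP2: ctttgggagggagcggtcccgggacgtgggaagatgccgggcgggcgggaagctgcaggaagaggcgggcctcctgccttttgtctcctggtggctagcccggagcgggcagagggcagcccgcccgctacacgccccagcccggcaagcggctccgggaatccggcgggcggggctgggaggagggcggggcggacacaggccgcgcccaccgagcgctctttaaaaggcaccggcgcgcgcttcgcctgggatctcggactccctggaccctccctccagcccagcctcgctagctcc
TMPRSS11E: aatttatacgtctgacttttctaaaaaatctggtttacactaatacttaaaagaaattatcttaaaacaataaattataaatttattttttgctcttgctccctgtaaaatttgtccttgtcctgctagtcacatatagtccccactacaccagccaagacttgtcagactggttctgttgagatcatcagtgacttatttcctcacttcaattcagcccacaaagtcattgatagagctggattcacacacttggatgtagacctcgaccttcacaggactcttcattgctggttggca
HTR3E: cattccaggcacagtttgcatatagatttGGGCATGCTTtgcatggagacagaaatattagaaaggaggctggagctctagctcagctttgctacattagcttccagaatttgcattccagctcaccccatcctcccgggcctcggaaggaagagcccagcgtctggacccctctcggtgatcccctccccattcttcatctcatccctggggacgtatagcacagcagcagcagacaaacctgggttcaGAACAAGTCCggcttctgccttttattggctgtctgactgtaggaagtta
A half-site decamer was found in 1 of the 15 windows (6.67%), that of HTR3E, which holds 2, and in 6.63% of 35116 RefSeq promoters. Sites of the p53 family also lie outside such windows, which were not searched.

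Same-numbered libraries of the TAp63 line moved together. The correlation across 15056 genes of their deviations from the group means was 0.650, 0.413 and 0.612 for replicates 1, 2 and 3 of days 1 and 0, and at most 0.0819 for differently numbered libraries. Replicate 1 of both days, for example, stood high for the fetal globin HBG2 (13.4 CPM at day 1 and 24.6 CPM at day 0) against 0.658 to 5.39 CPM in the other day 1 libraries and 0.425 to 1.06 CPM in the other day 0 libraries. With the replicate number as a block, edgeR called 45 genes higher (0.299%) and 9 lower (0.0598%), and all 19 genes above were among the 45. The 28 genes that DESeq2 called without a block all lay among the 54, and edgeR with all 24 libraries and no block called NGFR, TRPM6, ATP1B2 and TMEFF2 (adjusted p = 0.0347, 0.00641, 0.00641 and 0.0441). In 23 libraries of both lines the block gave 85 higher (0.539%) and 55 lower (0.348%). Of the 45, 33 rose at least 2-fold, and 0 of the 9 fell that far. These counts depended on single libraries: they were 24 and 0 without day 1 replicate 2, 23 and 2 without day 0 replicate 2, 37 and 2 without day 0 replicate 1, 31 and 5 without day 0 replicate 3, 89 and 119 without day 1 replicate 1, and 78 and 30 without day 1 replicate 3. Day 1 replicate 2 was the highest day 1 library for 36 of the 45 and the lowest for 6 of the 9. The values given next, for genes called higher or lower with the block, are from the fit with the block unless said otherwise. These genes were named after their values were seen. From the gene lists on, values are from the fit without the block unless said otherwise.

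NGFR, the neurotrophin receptor p75 that marks basal cells of stratified epithelia, had 0.469, 3.28 and 1.05 CPM in replicates 1, 2 and 3 of day 1, against 0, 0.0484 and 0.213 CPM at day 0. The groups did not overlap, with replicate 2 of day 1 highest. The log2 change was 4.12 ± 0.66 (edgeR adjusted p = 0.00315 with the block and 0.198 without it). It was 2.65 without day 1 replicate 2 (0.344) and 3.37 without day 0 replicate 2 (0.217), and 5.46 without day 0 replicate 3 and 4.74 without day 1 replicate 3. NGFR overlaps LOC100288866 and MIR6165.

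CAV1, the coat protein of caveolae and also on the basal squamous list, had 5.08, 16.8 and 8.69 CPM at day 1 and 3.24, 4.26 and 3.51 CPM at day 0. Its log2 change was 1.47 ± 0.24 (edgeR adjusted p = 0.00413 with the block and 0.314 without it), and the call with the block was lost without replicate 2 of either day. EMP1, an epithelial membrane protein of squamous differentiation, had 12.8, 28.5 and 15.1 CPM at day 1 and 10.0, 11.7 and 10.8 CPM at day 0. It rose by a log2 of 0.82 ± 0.17 (edgeR adjusted p = 0.0401 with the block and 0.936 without it), and the call held in 2 of the 6 omissions.

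GPC4, a glypican carrying heparan sulfate, had 0.390, 1.45 and 0.790 CPM at day 1 and 0.309, 0 and 0.106 CPM at day 0, a log2 change of 3.37 ± 0.65 (edgeR adjusted p = 0.0209). The change was 2.59 without day 1 replicate 2, 2.44 without day 0 replicate 2 and 4.11 without day 0 replicate 1, and the call was lost without replicate 2 of either day or day 0 replicate 3. ATP1B2, the beta 2 subunit of the sodium pump, had 24.1, 145 and 34.6 CPM at day 1 and 10.4, 12.7 and 11.8 CPM at day 0. Replicate 2 of day 1 was more than 4 times the next library, and the log2 change of 2.45 ± 0.37 (edgeR adjusted p = 0.00154) was 1.38 without it (1.1e-05), so that the call held in all 6 omissions. FAM20C, the kinase that phosphorylates secreted proteins, had 89.7, 345 and 70.0 CPM at day 1 and 47.9, 39.8 and 37.2 CPM at day 0, with a log2 change of 1.88 ± 0.34 (edgeR adjusted p = 0.0121) and of 0.89 without day 1 replicate 2 (0.000181). Its call was lost without day 0 replicate 2.

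TUBB3, the beta tubulin typical of neurons, had 36.6, 34.0 and 20.7 CPM at day 1 and 14.5, 11.8 and 10.5 CPM at day 0. These groups did not overlap, and the log2 change of 1.31 ± 0.15 (edgeR adjusted p = 4.6e-05) was called in all 6 omissions. DUSP6, a phosphatase that switches off ERK, had 36.2, 57.3 and 36.5 CPM at day 1 and 28.3, 26.4 and 23.7 CPM at day 0, with no overlap and a log2 change of 0.75 ± 0.13 (edgeR adjusted p = 0.00558). ADAM9, a membrane protease, rose by a log2 of 0.65 ± 0.11 (edgeR adjusted p = 0.00413), and both calls were lost without replicate 2 of either day, that of DUSP6 also without day 0 replicate 3. Others called higher with the block were the magnesium channel TRPM6 (3.07 ± 0.51), the tumor necrosis factor receptor TNFRSF1A (1.12 ± 0.22), the growth factor PGF (1.09 ± 0.20) and the BMP antagonist CHRD (0.99 ± 0.20), in log2. All 4 calls were lost without replicate 2 of either day, and those of TNFRSF1A and CHRD also without day 0 replicate 1 or 3.

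The 9 genes called lower with the block fell by small amounts. FGF1, a fibroblast growth factor, had 25.9, 22.3 and 31.9 CPM at day 1 and 34.5, 45.2 and 47.5 CPM at day 0, so every day 1 library was below every day 0 library. Its log2 change was -0.69 ± 0.11 (edgeR adjusted p = 0.00426), lost without replicate 2 of either day. BMX, a Tec family kinase found in tuft cells, had 51.7, 38.2 and 51.1 CPM at day 1 and 68.4, 80.6 and 70.2 CPM at day 0, also with no overlap (log2 change -0.67 ± 0.12, edgeR adjusted p = 0.013, lost also without replicate 2 or 3 of day 0). POU2F3, the tuft cell factor, had 165, 144 and 192 CPM at day 1 and 193, 216 and 245 CPM at day 0, a log2 change of -0.39 ± 0.08 (edgeR adjusted p = 0.0469), and overlaps LOC649133. ALOX5, which makes leukotrienes, had 172, 108 and 104 CPM at day 1 and 222, 152 and 143 CPM at day 0. Its groups overlapped, but each day 1 library was below its same-numbered day 0 library (log2 change -0.44 ± 0.08, edgeR adjusted p = 0.0179). MYC, the growth-promoting transcription factor, had 364, 275 and 272 CPM at day 1 and 440, 380 and 343 CPM at day 0, overlapping across numbers but lower within each (log2 change -0.36 ± 0.08, edgeR adjusted p = 0.0406). NEFL, SYT6, CRYM and PIK3R5 fell by 0.39, 0.50, 0.40 and 0.51 on the log2 scale, with edgeR adjusted p-values of 0.0333 to 0.0445. None of these 9 calls held without day 1 replicate 2, and 7 of the 9, all but FGF1 and BMX, held in only 2 of the 6 omissions.

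The lists of genes compared between the days had 825 different members, of which 616 passed the filter on low counts. Among these, edgeR called 3 higher (the induced gene TP63, ALK and COL19A1), against 0.126% of all genes tested, and 0 lower, against 0%. With the block 9 were higher, against 0.299%, and 4 lower (MYC, POU2F3, BMX and ALOX5), against 0.0598%. The basal squamous list had 0 of 20 tested members called and a median log2 change of -0.05, with NGFR and CAV1 called with the block. The squamous differentiation list had 0 of 28 called and a median of -0.01, and EMP1 alone was called with the block. SPRR1A, a cornified envelope precursor on it, had 120, 123 and 100 CPM at day 1 and 225, 185 and 182 CPM at day 0. Its log2 change with the block was -0.79 ± 0.17 in the 12 TAp63 libraries (edgeR adjusted p = 0.056). With the block in 23 libraries SPRR1A was called lower (edgeR adjusted p = 0.0124).

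Of 40 p53-family targets, 34 were tested, 0 were called and 21 had a positive log2 change, with a median of 0.07. CDKN1A, the cell cycle inhibitor p21, had 9.84, 10.3 and 8.03 CPM at day 1 and 6.80, 6.14 and 5.42 CPM at day 0, which did not overlap (log2 change 0.65 ± 0.19, edgeR adjusted p = 0.884, 0.0837 with the block and 0.0402 with the block in 23 libraries). MDM2, which degrades p53, had 64.0, 91.6 and 144 CPM at day 1 and 70.1, 96.5 and 119 CPM at day 0, and its groups overlapped. DUSP6 was the 1 target called with the block in the 12 TAp63 libraries, and with the block in 23 libraries CDKN1A and CD82 (edgeR adjusted p = 0.00845) were called as well. CDKN1A overlaps DINOL, an antisense gene.

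All 18 tested members of the tuft cell list had a negative log2 change, with a median of -0.31 against 0.00169 over all genes, and 0 were called without the block. With the block 3 were called lower, BMX, ALOX5 and POU2F3, against 0.0598% of all genes tested. With the block in 23 libraries 6 were, against 0.348%: these 3, SOX9, COLCA2 and C11orf53. At an unadjusted p under 0.05, 7 were lower, against 1.32% of all genes tested: POU2F3, GFI1B, SOX9, BMX, KIT, SH2D6 and COLCA2. The summed level of the list was 2242, 1765 and 1988 CPM at day 1 and 2589, 2374 and 2341 CPM at day 0, without overlap. SOX9, a factor of progenitor cells, had 273, 212 and 289 CPM at day 1 and 358, 316 and 359 CPM at day 0, and C11orf53, a coactivator of POU2F3, had 31.7, 37.5 and 35.2 CPM at day 1 and 38.2, 58.3 and 50.2 CPM at day 0. GFI1B, a transcriptional repressor made in tuft cells, and KIT, a receptor kinase, had log2 changes of -0.30 ± 0.13 and -0.24 ± 0.11. The shared direction is a description of these libraries. After 1 day in the ΔNp63 line, without day 1 replicate 3, the 3 members called with the block also had negative log2 changes. In edgeR without the block these were -0.87 for BMX (adjusted p = 0.022), and -0.49 for POU2F3 and -0.28 for ALOX5, neither called.

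**Figure D3:**
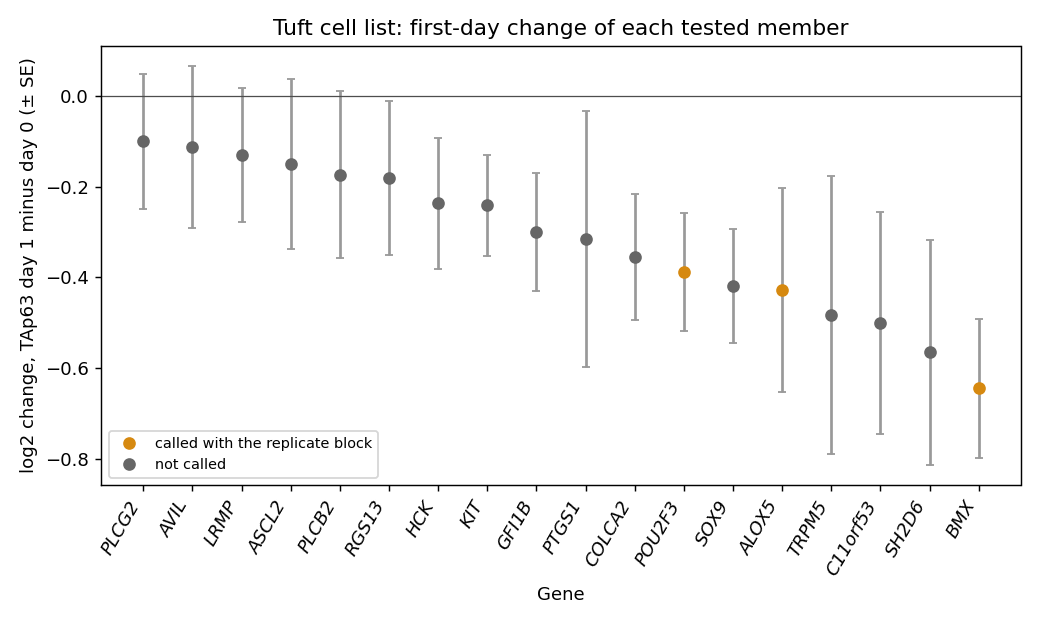
Log2 change ± SE of the 18 tested tuft cell list members in edgeR without the block, TAp63 day 1 minus day 0. All 18 points lie below 0, from -0.10 for PLCG2 to -0.64 for BMX, and the 3 called with the block are orange.

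Few members of the other lists were called. ALK was the 1 called of 31 tested receptor tyrosine kinases and COL19A1 the 1 of 16 mesenchymal and matrix genes. TP63, the induced gene itself, was the 1 of 25 epithelial transcription factors. The share called higher over all genes tested was 0.126%, and the lists without these genes had 0 called without the block. The hypoxia and glycolysis list had 27 of 32 tested members with a negative log2 change and a median of -0.20, with 5 lower at an unadjusted p under 0.05, against 1.32% of all genes tested. Its most negative member was NDRG1, a hypoxia-responsive gene, with 155, 133 and 129 CPM at day 1 and 342, 225 and 206 CPM at day 0. The log2 change of NDRG1 with the block was -0.88 ± 0.19 in the 12 TAp63 libraries (edgeR adjusted p = 0.055). With the block in 23 libraries NDRG1 was called lower (edgeR adjusted p = 0.0281). EGLN3, a prolyl hydroxylase of the hypoxia response, had 80.2, 77.4 and 77.7 CPM at day 1 and 140, 114 and 102 CPM at day 0. The ATF4 stress list had 29 of 37 negative (median -0.11) and the sterol and fatty acid list 26 of 32 (median -0.09), while the G2/M list had 22 of 37 positive (median 0.05). Of the 28 tested neuroendocrine genes 0 were called (median -0.05), and EZH2, the polycomb methyltransferase, had 200, 180 and 200 CPM at day 1 and 206, 196 and 192 CPM at day 0. These lists' medians stand beside 0.00169 over all genes tested.

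Markers of other cell types were low apart from LYZ. The 13 fibroblast genes summed to 27.6 to 36.9 CPM at day 1 and 24.5 to 30.9 CPM at day 0, of which COL1A1 gave 12.6 to 24.8 CPM at day 1 and 10.7 to 19.3 CPM at day 0, and THY1 had 0 counts in all 6 libraries. The 17 immune cell genes summed to 874 to 1218 CPM at day 1 and 1139 to 1450 CPM at day 0, of which LYZ, a lysozyme also made by epithelia, gave all but 35.7 to 56.4 CPM at day 1 and 38.1 to 78.5 CPM at day 0. The 10 endothelial genes summed to 9.79 to 12.03 CPM at day 1 and 11.2 to 15.9 CPM at day 0. Their part in the results was not tested.

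Day 1 is the first point of a 6-day course, and 2 of the 19 genes were called higher again at day 3 than at day 1, against 0.139% of all genes tested, while 0 of the 19 were called lower, against 0.00664%. COL19A1 reached 15.4, 14.7 and 12.2 CPM at day 3 (log2 change from day 1 of 1.52, edgeR adjusted p = 0.00856) and 20.9, 18.2 and 18.2 CPM at day 6. HTR3E reached 74.3, 86.9 and 76.2 CPM at day 3 (1.11, edgeR adjusted p = 0.0178) and 46.5, 55.6 and 50.5 CPM at day 6. TP63 averaged 372 ± 45 CPM at day 1, 559 ± 92 at day 3 and 657 ± 41 at day 6 (SD, n = 3 each), with a log2 difference of 0.59 between days 3 and 1 (edgeR adjusted p = 0.149). GPC4 and TMEFF2, called at day 1 by edgeR in the 12 TAp63 libraries with the block and not without it, were also called higher at day 3 than at day 1, by a log2 of 2.98 and 1.37. ZNF608 and FAM157A had lower means at day 3 than at day 1, at 17.5 and 21.7 CPM, by a log2 of -0.56 and -0.91 that was not called (edgeR adjusted p = 0.388 and 0.149). With the replicate block 9 of the 19 were called higher at day 3 than at day 1 and 2 lower, and without it the higher count was 6 when day 1 replicate 2 was left out and 1 when day 1 replicate 1 was. The day 3 test uses the same day 1 libraries as the day 1 test.

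**Figure D4:**
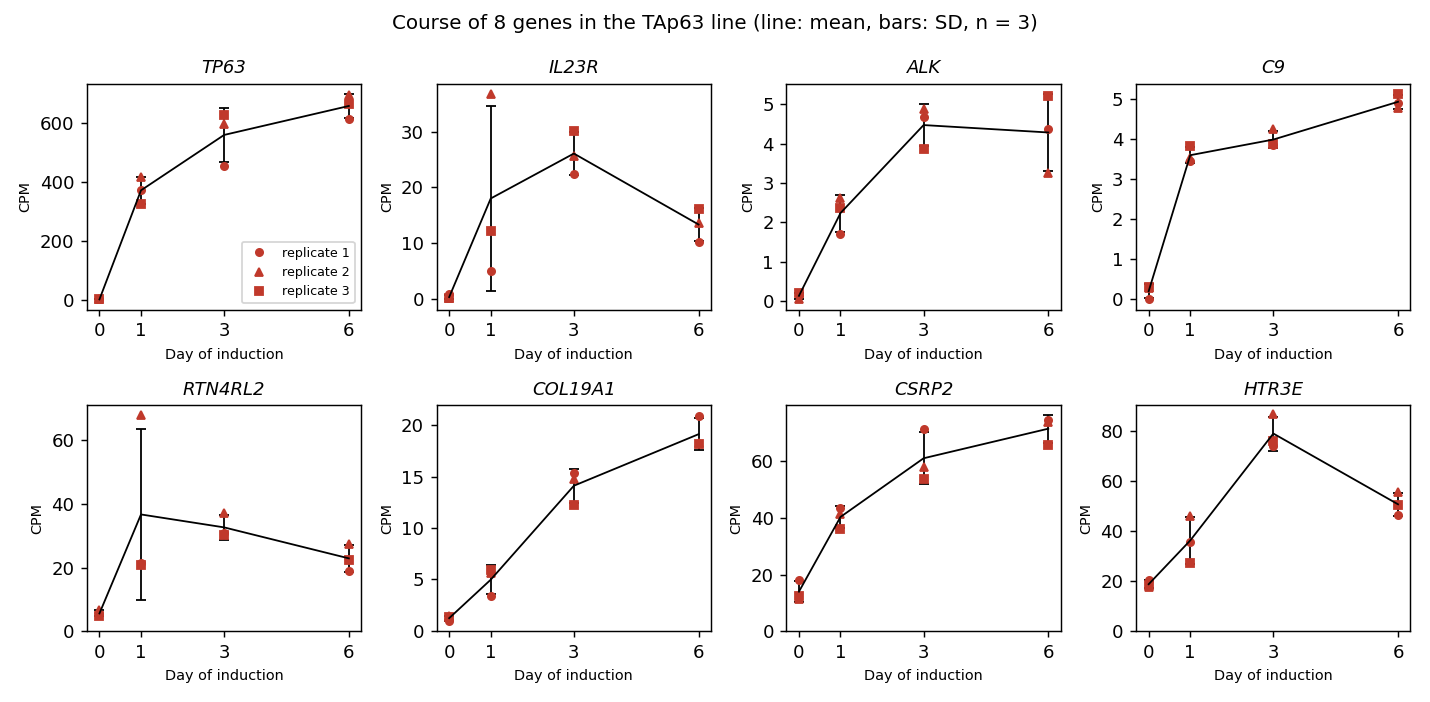
CPM of 8 genes in the TAp63 line over days 0, 1, 3 and 6, with a symbol for each replicate, the mean as a line and the SD as bars (n = 3). COL19A1 and CSRP2 have higher means at each later day, whereas IL23R and HTR3E have their highest mean at day 3.

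In the ΔNp63 line, without day 1 replicate 3, a library of 1530847 counts that stood apart, 27 genes were called higher after 1 day (0.171%) and 2 lower (0.0127%). The difference of the first-day responses, TAp63 minus ΔNp63, was called by edgeR for 0 genes above 0 and 1 below (0.00634%), PADI3, over 15783 genes in 23 libraries. At an unadjusted p under 0.05, 43 genes had a positive difference and 108 a negative one. PADI3, a peptidylarginine deiminase of hair and epidermis, had 6.01, 4.22 and 4.34 CPM at day 1 and 4.94, 2.61 and 3.14 CPM at day 0 in the TAp63 line. In the ΔNp63 line it had 34.2 and 33.0 CPM at day 1 and 2.97, 3.07 and 3.09 CPM at day 0. The TAp63 groups overlapped and the ΔNp63 groups did not, and the difference was -2.91 ± 0.29 in log2 (edgeR adjusted p = 6.0e-05). With all 24 libraries it was -2.60 and was not called (edgeR adjusted p = 1.00), the omitted library having 3.99 CPM of PADI3. It also had 69.2 CPM of TP63, against 721 and 576 CPM in the other ΔNp63 day 1 libraries.

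None of the 19 genes called in the TAp63 line was called different between the lines. Among them C9 had the widest positive gap, with a log2 change of 3.76 in the TAp63 line and 0.27 in the ΔNp63 line, a difference of 3.50 ± 1.13 (unadjusted p = 0.0106, edgeR adjusted p = 1.00). In the ΔNp63 line it had 0.0723 and 0.0907 CPM at day 1 and 0.165, 0 and 0.0657 CPM at day 0, while the omitted ΔNp63 library had 1.995 CPM. IL23R changed by a log2 of 6.80 in the TAp63 line and 4.25 in the ΔNp63 line, and CSRP2 by 1.57 in the TAp63 line and 1.62 in the ΔNp63 line. TP63 itself rose by 6.98 in the TAp63 line and 7.23 in the ΔNp63 line. All of the 19 but C9 and RTN4RL2 were also called higher by edgeR in the ΔNp63 line, against 0.171% of all genes tested. In that line RTN4RL2 rose by a log2 of 1.70 (edgeR adjusted p = 0.0557) and FAM157A by 2.13 (edgeR adjusted p = 1.7e-06). With the replicate block INTS5, a subunit of the Integrator complex, was called with a difference of 0.74 (edgeR adjusted p = 0.0353). Without the block the difference was 0.72 and was not called. INTS5 had 58.9, 78.5 and 58.3 CPM at day 1 and 36.9, 48.4 and 43.8 CPM at day 0 in the TAp63 line. In the ΔNp63 line it had 37.0 and 49.8 CPM at day 1 and 43.3, 54.9 and 44.3 CPM at day 0. The omitted ΔNp63 library had 58.5 CPM of INTS5. A p that misses the threshold does not show that the lines act alike.

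**Figure D5:**
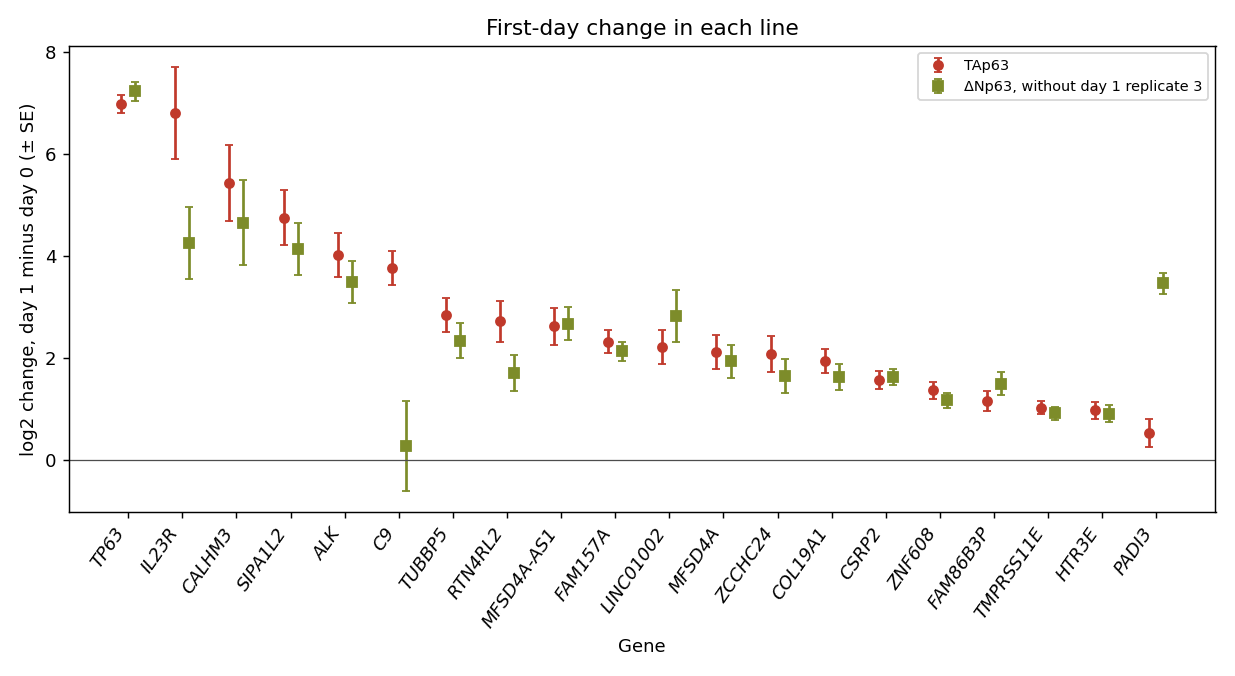
Log2 change, day 1 minus day 0 (± SE), of the 19 called genes and PADI3, with TAp63 (red) left of ΔNp63 (green, 23-library fit without the library that stood apart). PADI3, at 0.52 in the TAp63 line and 3.46 in the ΔNp63 line, is the 1 gene whose responses were called different, and C9 has the opposite gap without a call.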

How the data were processed

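Total RNA was isolated with TRIzol and NEBNext Ultra libraries were read on a NextSeq instrument, per the labels' protocols. HISAT2 2.1.0 (alignment to hg38), featureCounts 1.6.1 and DESeq2 are the tools in the submitters' processing notes. Per the file header, the deposited counts came from featureCounts 2.0.0 and cover whole transcript spans, introns included, with no strand option. The deposited values are raw counts per gene from the authors, of 28278 genes, 6005 of them at 0 in all 24 libraries.

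From these counts, edgeR 4.0.16 in R 4.3.3 (limma 3.58.1) fitted the 12 TAp63 libraries with a mean per day, after filterByExpr and TMM scaling, with 8 residual degrees of freedom. The ± value of a log2 change is an approximate SE, its size divided by the square root of the F value. The difference between the lines was tested in 23 libraries, without ΔNp63 day 1 replicate 3. DESeq2 1.42.0 and the settings listed in the closing section were alternatives. TAp63 replicates differed by a chi-square per degree of freedom of at least 5.353, so no library was counted as a duplicate. Same-numbered libraries correlated at 0.228 or more in every pair, above the 0.1 set for pairing, so the blocked values are given where they change a call. That pairing comes from the data, as no label says what a number marks.

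The genes named are TP63, the called genes and marker genes of the lists, with those called by edgeR with the block and not without it chosen after their values were seen. Some genes are not reported here. The members, lists and tests were chosen with earlier results of these data known.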

Additional observations from a re-analysis of the deposited data

Results flagged for a closer look

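PADI3 was flagged because the first-day response differed between the lines by a test of the difference itself: the TAp63 change minus the ΔNp63 change was -2.91 in log2 (edgeR adjusted p = 6.0e-05), with ΔNp63 day 1 replicate 3 left out. In the TAp63 line it averaged 4.86 ± 1.01 CPM at day 1 and 3.56 ± 1.22 CPM at day 0 (SD, n = 3 each), and the 2 ΔNp63 day 1 libraries used had 34.2 and 33.0 CPM. The difference was called in each of the 6 omissions of a TAp63 library, and not with all 24 libraries.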

How the results depend on the processing

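The 19 genes called higher in edgeR became 8 in a fit of the 6 compared libraries alone, 45 with the replicate block and 85 with the block in 23 libraries, and 9 to 26 when 1 library was left out (with the block 23 to 89, with 37, 31 and 78 among them). The count lower was 0, 1 in 23 libraries, 9 with the block, 55 with the block in 23 libraries, and 0 to 1 without 1 library (with the block 0 to 119, 30 among them). All 19 kept their calls with RLE size factors, without a filter, with DESeq2 and with the block. With all 24 libraries 15 of the 19 kept theirs, HTR3E, TMPRSS11E, LINC01002 and FAM86B3P losing it, with 23 libraries 18, LINC01002 losing it, and with the 6 compared libraries alone 8.

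List members called higher numbered 3, and 5 with all 24 libraries, 6 with 23, 9 with the block, 15 with the block in 23 libraries, 7 with DESeq2, and 3 to 7 without 1 library (4 to 14 with the block). Members called lower numbered 0, 4 with the block and 12 with the block in 23 libraries (0 to 21 when 1 library was also left out, and 0 without the block).

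For the course to day 3, 2 of the 19 were higher: 1 with 24 libraries, 5 with 23, 9 with the block, 10 with the block in 23, and 1 to 6 without 1 library. Of lower genes there were 0: 1 with 23 libraries, 2 with the block and 2 with the block in 23. The difference between the lines was positive for 0 genes and 1 with the block, and negative for 1 gene and 0 with all 24 libraries, where PADI3 had -2.60.

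Genes near 0 changed sign. SYP ranged from -0.13 to 0.15 without 1 library, and with the block was -0.053 without day 0 replicate 2 and -0.091 without day 1 replicate 2. EZH2 ranged from -0.056 to 0.023, and with the block was 0.020 without day 1 replicate 1 and 0.016 without day 0 replicate 2. MDM2 ranged from -0.29 to 0.29, and was -0.16 with the block without day 1 replicate 3. The causes were not tested. Over the settings of the called genes, 333 values kept their call, 46 lost it and 0 changed sign. Depth limits genes under about 1 CPM, such as CALHM3.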
